A study of Mus musculus with 12 samples.

Results

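The 10 genes described here are the enzymes and regulators of hepatic fatty acid synthesis: Srebf1, Mlxipl, Pklr, Acly, Me1, Acaca, Acacb, Fasn, Thrsp and Pnpla3. They were taken by symbol from the 21705 genes of the deposited liver table, and all 10 were found. RNA was sequenced from the livers of C57BL/6J female mice of 10 to 12 weeks, 6 dosed by tail vein with saline and 6 dosed with LNA29. LNA29 is a mixture of locked nucleic acid inhibitors, 1 against miR-29a and 1 against miR-29b/c, each at 20 mg/kg. In both groups the livers were collected on day 7 and the mice had been fasted for 18 h, so every value is that of a fasted liver, a state in which fatty acid synthesis is usually low. No livers dosed with a control oligonucleotide were analysed here, so the effect of LNA29 and that of dosing with any LNA cannot be told apart here. Each liver has its own mouse number in the labels, and replicates are named by it (saline replicates 43, 45, 47, 49, 51 and 53, LNA29 replicates 44, 46, 48, 50, 52 and 54).

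De novo lipogenesis turns surplus carbohydrate into fatty acids. Glycolysis feeds citrate to the cytosol, citrate is cleaved to acetyl-CoA, acetyl-CoA is carboxylated to malonyl-CoA, and fatty acid synthase condenses these units into palmitate at the expense of NADPH. In liver the genes are driven by the insulin-responsive factor SREBP-1, encoded by Srebf1, and by the carbohydrate-responsive factor ChREBP, encoded by Mlxipl.

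The mature sequences of the microRNAs that LNA29 was made to bind show what the family has in common. They are given 5′ to 3′ from RefSeq, with the seed (bases 2 to 8, the part that pairs with target messages) in capitals.
mmu-miR-29a-3p: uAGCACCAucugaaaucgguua
mmu-miR-29b-3p: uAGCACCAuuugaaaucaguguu
mmu-miR-29c-3p: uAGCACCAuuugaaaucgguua
All share the same seed. Its complement, TGGTGCT, was absent from the longest annotated 3′ UTR of each of the 10 genes, and was present in that of 2679 of 19718 genes (13.6%). The match with an additional A opposite the first base was also absent from the 10 genes and present in 2.98% of all genes. Absence of these letters says nothing of sites of other kinds. Mature miR-29 is not measured by sequencing of polyadenylated RNA. Messages long known as miR-29 targets were read in its place. The collagen message Col1a1 ranged from 93.8 to 333 in saline and from 146 to 698 in LNA29 livers (log2 fold change 0.70, SE 0.37, limma p = 0.0737, adjusted p = 0.688, exact permutation p = 0.123). Another collagen message, Col3a1, ranged from 158 to 318 in saline and from 342 to 938 in LNA29 livers, with no overlap (log2 fold change 1.48, SE 0.28, adjusted limma p = 0.0438, exact permutation p = 0.00216). With 1 liver left out, its adjusted p stayed under 0.05 in 2 of 12 fits and reached 0.126 without saline replicate 51. Sparc, which encodes a collagen-binding matrix protein, ranged from 2120 to 2765 and from 5683 to 9547, also with no overlap (log2 fold change 1.51, SE 0.14, adjusted limma p = 4.62e-05, exact permutation p = 0.00216), and kept an adjusted p under 0.05 in all 12 such fits.

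The authors' values are reads per gene, scaled in each liver to an upper quartile of 1000 over genes with reads, with 1 entered for a gene without reads. Saline livers held between 8217213 and 19062441 reads on genes and LNA29 livers between 7696084 and 15079236, so a single read corresponded to a value of 9.80 to 24.4. Albumin took 35.7% of the reads in saline replicate 49 and between 43.6% and 46.9% in the other 11 livers. All 5 hepatocyte markers had reads in every liver. Their summed value was lowest in saline replicate 49, at 3.17e+07, and between 7.36e+07 and 1.08e+08 in the others.

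Across the 10 genes, lower values in LNA29 livers were common, but no gene passed the test with adjustment over all genes. With limma on log2(value + 1), 9 of the 10 genes were abundant enough to test (mean of at least 10) and 8 of these had a lower mean in LNA29 livers, against 61.4% of the 12486 genes tested. An adjusted p under 0.05 was reached by 0 of the 9 genes and by 0.16% of all genes tested (0.0881% with a lower value), and the smallest value among the 9 was 0.261. An unadjusted limma p under 0.05 was reached by 5 genes, Srebf1, Mlxipl, Pklr, Acaca and Fasn, all of them lower, while 7.91% of all genes tested reached it 5.97% with a lower and 1.95% with a higher value. The same 5 genes had an exact permutation p under 0.05, against 8.5% of all genes tested (6.34% lower). As log2 fold change, the median over the 9 genes was -0.68, and that of all genes tested was -0.093. The ratio of group means was 1/1.5 or less for 6 of the genes and for 10.2% of all genes tested. For each of the 10 genes the values of the groups overlapped, as they did for nearly all genes tested. Of all genes tested, 0.713% were lower in every LNA29 liver than in any saline liver and 0.272% were higher. Without saline replicate 49, in which albumin took a smaller share, 5 genes again had an unadjusted limma p under 0.05 and the median was -0.70. In bulk liver RNA, fewer cells of a type and less RNA per cell cannot be told apart.

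**Figure D1:**
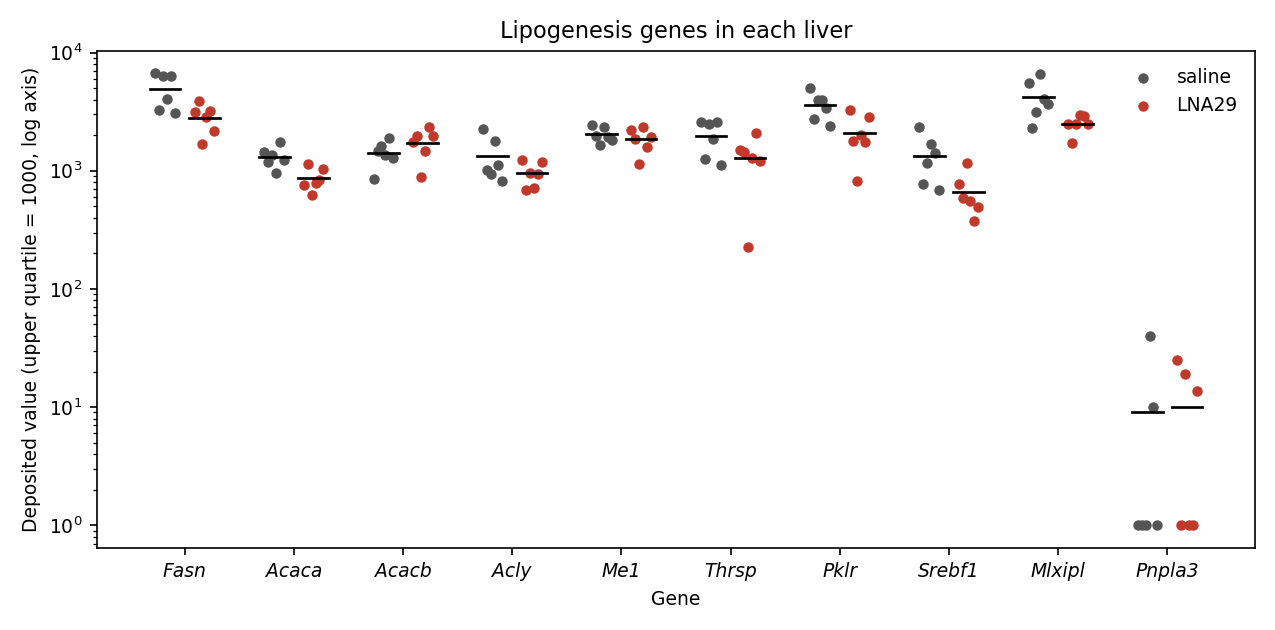
Deposited value (log axis, upper quartile of a liver = 1000) of the 10 lipogenesis genes in 6 saline (grey) and 6 LNA29 (red) livers, with 1 point per liver and a bar at the group mean. The groups overlap for every gene, Thrsp has 1 LNA29 liver at 226 far under the others, and Pnpla3 lies at 40 or less in all livers.

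Both transcription factors had lower values in LNA29 livers at unadjusted p. Srebf1 (Entrez 20787, chr11:60199084-60224186 in GRCm38.p6) encodes SREBP-1, which activates the genes of fatty acid synthesis. Its values ran from 686 to 2328 in saline livers with a median of 1281, and from 377 to 1170 in LNA29 livers with a median of 569. All 6 LNA29 livers lay under the saline median and 4 of them under every saline liver, the exceptions being LNA29 replicates 44 and 48. The LNA29 mean of 659 ± 282 was 49.1% of the saline mean of 1342 ± 614 (SD, n = 6 each). On the log2 scale the difference was -0.99 (SE 0.30, 95% CI -1.63 to -0.36, limma p = 0.00411, adjusted p = 0.270, two-sided exact permutation p = 0.0238). Between 20 and 170 reads stood behind each value. An exon of Srebf1 overlaps one of Rai1 on the opposite strand, and the strand setting of the counting is not given in the sources used here. Rai1 itself had at most 35 reads in a liver.

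Mlxipl (Entrez 58805, chr5:135089890-135139768) encodes ChREBP, the factor that carries the glucose signal to glycolytic and lipogenic genes. It ranged from 2317 to 6530 in saline livers (median 3859) and from 1732 to 2946 in LNA29 livers (median 2489). The LNA29 livers lay close together, all of them under the saline median, but only LNA29 replicate 46 was lower than saline replicate 45, the lowest control. The means were 4203 ± 1564 and 2508 ± 441 (SD, n = 6 each), a ratio of 59.7%, with a log2 difference of -0.68 (SE 0.22, 95% CI -1.14 to -0.22, limma p = 0.00580, adjusted p = 0.316, exact permutation p = 0.0281). The exact p came to 0.0519 without saline replicate 49, which had the highest value, and to 0.0541 without LNA29 replicate 46, which had the lowest.

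Pklr (Entrez 18770, chr3:89136122-89146815) encodes the liver pyruvate kinase, the last step of glycolysis and a classical ChREBP target. Saline livers ranged from 2392 to 5000 (median 3652) and LNA29 livers from 811 to 3275 (median 1899). LNA29 replicates 46, 48, 50 and 52 were lower than any saline liver, while LNA29 replicates 44 and 54 lay within the saline range. The LNA29 mean, 2083 ± 881, was 58.3% of the saline mean, 3573 ± 942 (SD, n = 6 each), and the log2 difference was -0.87 (SE 0.27, 95% CI -1.44 to -0.29, limma p = 0.00538, adjusted p = 0.305, exact permutation p = 0.0195). Pklr shares exon sequence on the opposite strand with Hcn3, which had at most 15 reads in a liver.

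The genes that supply acetyl-CoA and NADPH differed less. Acly (Entrez 104112, chr11:100476352-100528000), which encodes ATP-citrate lyase, the source of cytosolic acetyl-CoA, ranged from 824 to 2234 in saline livers (median 1069) and from 683 to 1238 in LNA29 livers (median 953). The higher saline mean rested largely on replicates 43 and 49, at 2234 and 1800, since the remaining 4 saline livers lay between 824 and 1121. The log2 difference was -0.40 (95% CI -0.92 to 0.11, limma p = 0.114, exact permutation p = 0.188). Me1 (Entrez 17436, chr9:86581363-86695914), the cytosolic malic enzyme that makes NADPH, ranged from 1667 to 2453 in saline livers and from 1132 to 2357 in LNA29 livers. Its LNA29 mean was 90.8% of the saline mean, with a log2 difference of -0.16 (95% CI -0.54 to 0.21, limma p = 0.363, exact permutation p = 0.405). Without LNA29 replicate 48, the lowest liver, the Me1 difference was -0.030 (exact permutation p = 0.805), and with array weights it was also -0.030. For neither gene did the difference exceed the spread between livers, and the intervals include both no difference and a lower level.

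The enzymes that build the chain were lower in LNA29 livers at unadjusted p. Acaca (Entrez 107476, chr11:84129635-84401651) encodes the cytosolic acetyl-CoA carboxylase, whose malonyl-CoA is the substrate of fatty acid synthase. It ranged from 950 to 1737 in saline livers (median 1302) and from 623 to 1146 in LNA29 livers (median 808), and 4 LNA29 livers lay under the lowest saline liver. The log2 difference was -0.61 (SE 0.18, 95% CI -1.0 to -0.23, limma p = 0.00363, adjusted p = 0.265, exact permutation p = 0.0108). Fasn (Entrez 14104, chr11:120805958-120825166) encodes fatty acid synthase, which makes palmitate. It ranged from 3059 to 6672 in saline livers (median 5197) and from 1679 to 3878 in LNA29 livers (median 2985). Saline replicates 43, 47 and 51 lay at 6672, 6333 and 6323, well above saline replicates 45, 49 and 53 at 3270, 4070 and 3059. The LNA29 livers overlapped the latter, and LNA29 replicates 48, 50 and 54 lay under every saline liver. The log2 difference was -0.79 (SE 0.23, 95% CI -1.29 to -0.30, limma p = 0.00335, adjusted p = 0.261, exact permutation p = 0.0173).

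**Figure D2:**
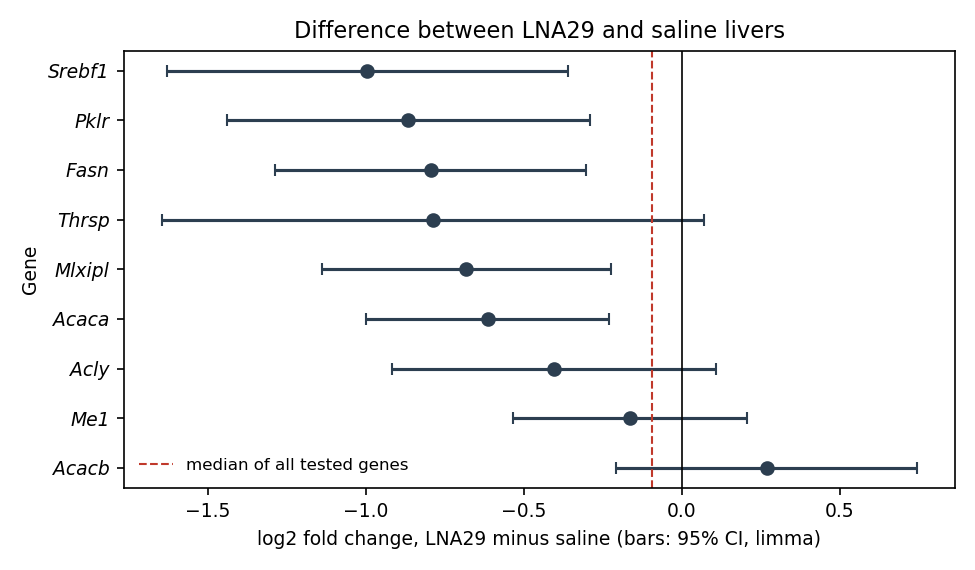
Log2 fold change (LNA29 minus saline, limma on log2(value + 1), 6 livers per group) of the 9 tested genes with 95% confidence intervals. The intervals of Srebf1, Pklr, Fasn, Mlxipl and Acaca end under 0, those of Thrsp, Acly, Me1 and Acacb include 0, and the dashed line marks the median of all genes tested at -0.093.

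Acacb (Entrez 100705, chr5:114146321-114250761) was the tested member with a higher mean in LNA29 livers. It encodes the second acetyl-CoA carboxylase, which sits at the outer mitochondrial membrane, where malonyl-CoA holds back the entry of fatty acids for oxidation. Saline livers ranged from 859 to 1889 (median 1405) and LNA29 livers from 887 to 2340 (median 1851). LNA29 replicates 46, 52 and 54 were higher than any saline liver and LNA29 replicate 48 was lower than 5 of the 6 saline livers. The log2 difference was 0.27 (SE 0.23, 95% CI -0.21 to 0.74, limma p = 0.250, exact permutation p = 0.320), smaller than the spread between livers. Single livers moved it, from 0.13 without saline replicate 43 (exact permutation p = 0.604) and 0.17 without LNA29 replicate 52 (exact permutation p = 0.509) to 0.45 without LNA29 replicate 48 (exact permutation p = 0.0390).

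Setting the paralogous carboxylases against each other within a liver removes the scaling of the library. The Acacb to Acaca ratio was 0.598 in saline replicate 43 and between 1.05 and 1.42 in the other 5 saline livers. In LNA29 livers it was lowest in replicate 48, at 1.42, and highest in replicate 52, at 2.82. The groups did not overlap, although the highest saline liver (1.421) and the lowest LNA29 liver (1.424) nearly met. The mean ratios were 1.10 ± 0.28 and 2.0 ± 0.49 (SD, n = 6 each), and the log2 ratios differed by 0.88. The exact permutation p was 0.00216, the smallest that 924 divisions of the livers can give. Leaving out each liver in turn gave differences between 0.72 and 0.98. The ratio was chosen after its genes' values had been seen, so its p is a description. Of the other genes tested, 2.81% had a ratio to Acaca that was higher in every LNA29 liver than in any saline liver, and 0.497% had a ratio to Acacb that was lower in every LNA29 liver.

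Among all 36 pairs of the 9 tested genes, the within-liver ratio did not overlap between the groups for 2 pairs, Acaca with Acacb and Fasn with Acacb. The log2 Fasn to Acacb ratio differed by -1.06 (LNA29 minus saline) (exact permutation p = 0.00216). An unadjusted exact p under 0.05 was found for 7 pairs, and 5 of these were among the 8 pairs that include Acacb. Acacb was already known as the tested member with a higher mean in LNA29 livers. The share of such pairs among all genes tested was not computed, so these counts are a description. The pairs share genes and livers, and RSEM can divide reads between similar messages, as those of Acaca and Acacb may be in part.

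**Figure D3:**
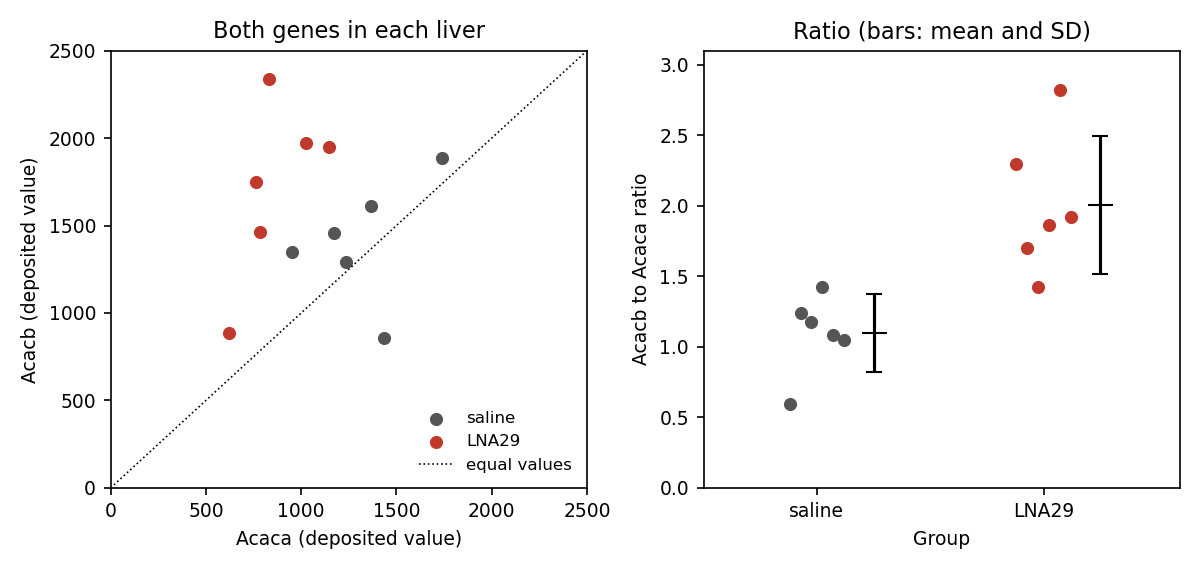
Left, deposited values of Acacb against Acaca in each of 12 livers, with the dotted line marking equal values. Right, the Acacb to Acaca ratio in each liver with the group mean and SD (n = 6), which was 1.10 ± 0.28 in saline and 2.0 ± 0.49 in LNA29 livers, with no overlap between groups.

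Thrsp and Pnpla3 encode proteins that accompany lipogenesis without catalysing a step of the chain. Thrsp (Entrez 21835, chr7:97412933-97417550), a thyroid hormone-responsive protein of lipogenic tissues, ranged from 1118 to 2578 in saline livers (median 2162) and from 226 to 2094 in LNA29 livers (median 1362). All LNA29 livers lay under the saline median, but 5 of 6 were within the saline range. LNA29 replicate 48 stood alone at 226, a value that rests on 12 reads. The log2 difference was -0.79 (SE 0.41, 95% CI -1.64 to 0.070, limma p = 0.0697, exact permutation p = 0.130) and, without LNA29 replicate 48, -0.34 (exact permutation p = 0.247). Pnpla3 (Entrez 116939, chr15:84167776-84189521), which encodes a lipid droplet protein induced by feeding, was barely detected. It had 4 reads in saline replicate 49, 1 or 2 reads in 4 livers and none in the other 7, so that no fold change is given.

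Per kilobase of the longest annotated coding transcript, the deposited values of saline livers ordered the genes from Thrsp, at 1545 ± 523 (SD, n = 6), through Pklr at 1231 ± 325 and Mlxipl at 1160 ± 432. These 3 lay within each other's SD. Me1 followed at 620 ± 93.0 and Fasn at 493 ± 166, then Srebf1 at 312 ± 143, Acly at 298 ± 128, Acacb at 161 ± 39.2 and Acaca at 138 ± 28. Neighbours in this order overlapped within 1 SD except Mlxipl with Me1, and Acaca with Pnpla3 at 6.87 ± 11.9. In LNA29 livers the order was the same except that Srebf1, at 153 ± 65.6, moved from rank 6 to rank 8, under Acly at 216 ± 52.3 and Acacb at 197 ± 57.2.

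The lower values did not come from the same livers for every gene. LNA29 replicate 48 had the lowest value of the 12 livers for Fasn, Acaca, Me1, Thrsp and Pklr, and the lowest of the LNA29 livers for Acacb. For Srebf1 the same liver had the highest value of its group, 1170, while LNA29 replicate 52 had the lowest Srebf1, 377, together with the highest Thrsp of its group, 2094. As deviations from the group means over 12 livers, the closest pairs were Fasn with Thrsp (Pearson's r = 0.81), Me1 with Pklr (0.79) and Thrsp with Pklr (0.78), which are descriptions over livers that share their library scaling.

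**Figure D4:**
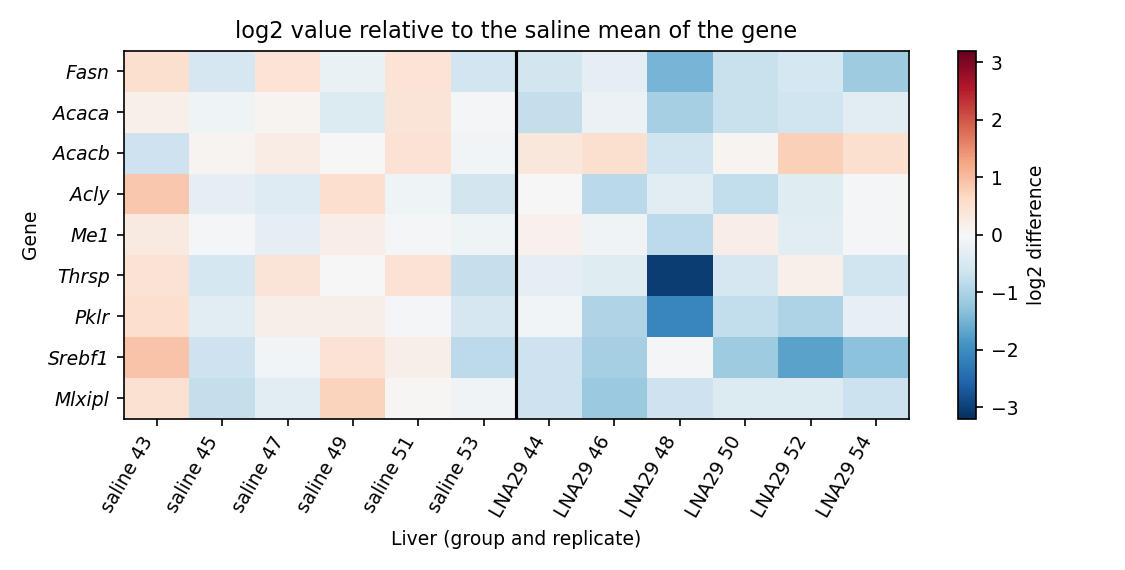
Log2(value + 1) of 9 genes (rows) in each liver (columns), minus the mean of the 6 saline livers for that gene, with red above and blue below. LNA29 replicate 48 is the lowest liver for Fasn, Acaca, Me1, Thrsp and Pklr while its Srebf1 lies near the saline mean, and Acacb is above the saline mean in 5 of 6 LNA29 livers.

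Whether livers with more Srebf1 or Mlxipl also had more of the other 8 genes was tested over 16 relations, with deviations from the group means and permutation within groups. The 16 include the relations with Pnpla3, which rest on values at the floor (at most 4 reads in a liver). None had a Benjamini-Hochberg adjusted p under 0.05 (smallest 0.264), and 3 had an unadjusted permutation p under 0.05. Mlxipl with Acly had r = 0.66 (permutation p = 0.0496, Spearman's rho = 0.64, permutation p = 0.0563) and r = 0.64 without the livers farthest from the median. Srebf1 with Acly had r = 0.63 (permutation p = 0.0448, rho = 0.61, permutation p = 0.0536) and 0.54 without them. Srebf1 with Acacb had r = -0.65 (permutation p = 0.0283, rho = -0.46, permutation p = 0.147) and -0.04 without saline replicate 43 and LNA29 replicate 48, so that this relation rested on those livers. Within the 6 saline livers Srebf1 ran with Pklr (r = 0.93), Acly (0.90) and Thrsp (0.81), and within the 6 LNA29 livers the same values were -0.49, 0.14 and -0.84. The difference between the saline and LNA29 r values was not tested. LNA29 replicate 48 had the highest Srebf1 and the lowest Pklr and Thrsp of its group. Over all 12 livers Srebf1 had r = 0.066 with Pklr and -0.22 with Thrsp. Without saline replicate 43 and LNA29 replicate 48 these were 0.63 and 0.36, so their sign or size also depended on those livers.

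Genes around the pathway were counted in 6 lists, in none of which a gene had an adjusted p under 0.05. The list medians are read beside the median of -0.093 over all genes tested. Of 11 tested genes that supply acetyl-CoA and NADPH, 7 were lower and 4 higher in LNA29 livers, with 0 at an unadjusted limma p under 0.05 and a median log2 fold change of -0.17. The smallest limma p was that of Tkt, the transketolase of the pentose phosphate pathway, at 2707 ± 85.3 in saline and 2298 ± 265 in LNA29 livers (log2 fold change -0.24, limma p = 0.0615, adjusted p = 0.657, exact permutation p = 0.00433). One further gene of this list, Pc, was not matched by symbol.

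Of 16 genes for SREBP processing and activators, 12 were lower and 4 higher (median -0.18), with 1 at an unadjusted p under 0.05 in each direction. Nr1h2, which encodes the oxysterol receptor LXR beta, was the lower gene (log2 fold change -0.38, limma p = 0.0443, adjusted p = 0.617, exact permutation p = 0.0584). Insig2, which encodes a protein that holds SREBP precursors in the endoplasmic reticulum and is induced by fasting, was the higher gene. It ranged from 7474 to 19140 in saline and from 12981 to 34342 in LNA29 livers (log2 fold change 0.72, SE 0.25, limma p = 0.0114, adjusted p = 0.416, exact permutation p = 0.0433). Insig1, its SREBP-induced relative, had means of 1797 and 1132 (log2 fold change -0.59, limma p = 0.0757, exact permutation p = 0.154).

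Of 11 genes for the ChREBP partner, sugar entry and other ChREBP targets, 8 were lower and 3 higher (median -0.39), with 3 lower at an unadjusted p under 0.05. Gckr, the regulatory protein that binds glucokinase, ranged from 2540 to 4281 in saline and from 1439 to 2906 in LNA29 livers (log2 fold change -0.76, SE 0.19, limma p = 0.000857, adjusted p = 0.157, exact permutation p = 0.00649). Slc2a2, the hepatic glucose transporter, had a log2 fold change of -0.71 (limma p = 0.0324, adjusted p = 0.567, exact permutation p = 0.0866) and Gpd1, which makes glycerol phosphate, one of -0.52 (limma p = 0.00920, adjusted p = 0.387, exact permutation p = 0.00649). Mlx, the obligate partner of ChREBP, had means of 570 and 600 (log2 fold change 0.085, limma p = 0.690, exact permutation p = 0.684).

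Of 11 genes that control acetyl-CoA carboxylase and malonyl-CoA, 8 were lower and 3 higher (median -0.28). Stk11, which encodes the kinase upstream of AMPK, was the gene with an unadjusted p under 0.05 (log2 fold change -0.33, limma p = 0.0216, adjusted p = 0.498, exact permutation p = 0.0108). Of 10 genes that use palmitate, 9 were lower and 1 higher (median -0.39), with 3 lower at an unadjusted p under 0.05. Scd1, the stearoyl-CoA desaturase, ranged from 6444 to 32399 in saline and from 3096 to 8238 in LNA29 livers (log2 fold change -1.43, SE 0.34, limma p = 0.000587, adjusted p = 0.138, exact permutation p = 0.0108). Fads1, the delta-5 desaturase, and Acsl5, an acyl-CoA synthetase, had log2 fold changes of -0.36 (limma p = 0.0410, adjusted p = 0.608, exact permutation p = 0.0606) and -0.32 (limma p = 0.0358, adjusted p = 0.583, exact permutation p = 0.0368).

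Since all livers were fasted, a list of 8 fasting-response genes was read beside these. Of them 3 were lower and 5 higher (median 0.10), and Fgf21, a fasting hormone of liver, was the gene with an unadjusted p under 0.05, at 265 ± 110 in saline and 588 ± 391 in LNA29 livers (log2 fold change 1.06, SE 0.38, limma p = 0.0132, adjusted p = 0.432, exact permutation p = 0.0390). Pck1, the gluconeogenic carboxykinase, had a log2 fold change of 0.13 (limma p = 0.623, exact permutation p = 0.316) and Cpt1a, the gate to mitochondrial oxidation that malonyl-CoA inhibits, one of -0.10 (limma p = 0.694, exact permutation p = 0.740).

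**Figure D5:**
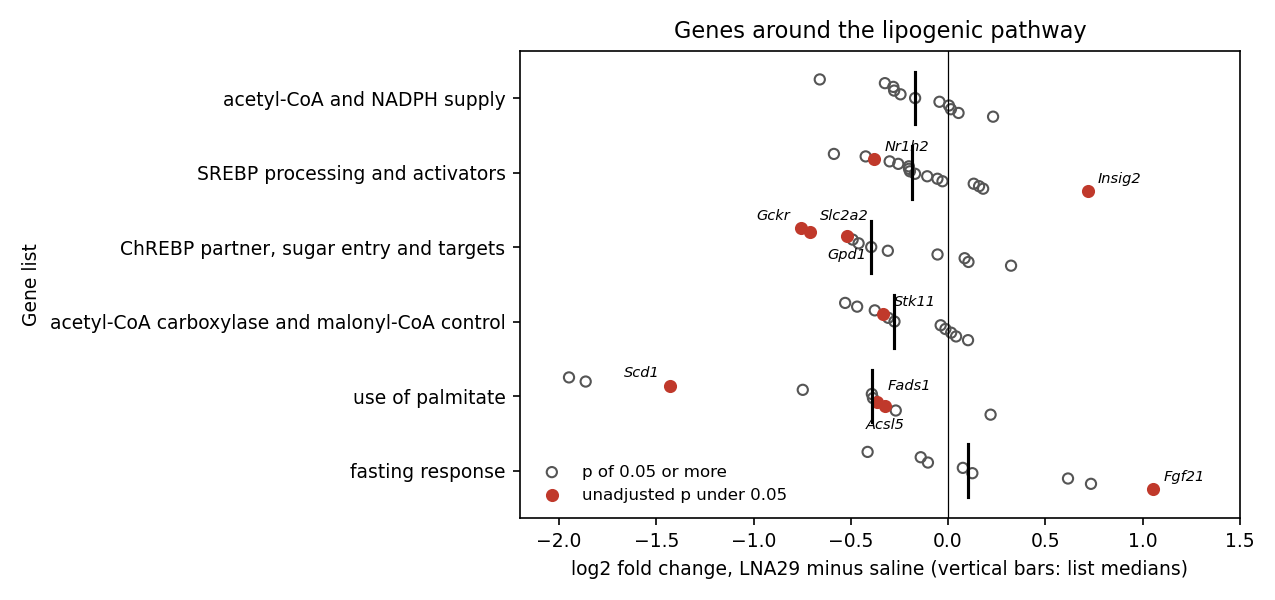
Log2 fold change (LNA29 minus saline, limma, 6 livers per group) of each tested gene in 6 lists around the lipogenic pathway, with red points for an unadjusted p under 0.05 and a vertical bar at each list median. The medians run from -0.39 to 0.10, and no gene passed an adjusted p of 0.05.

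Fat tissue also expresses lipogenic genes, and 8 adipocyte markers were therefore summed. The sum ranged from 1119 to 3068 in saline and from 1750 to 3507 in LNA29 livers, mostly from Fabp4, Lipe and Cidec. Lep, a defining adipocyte gene, had no reads in any liver, and Adipoq had reads in saline replicate 47 and LNA29 replicate 52 only, at 52.6 and 37.7. The same livers held Cfd at 772 and 698. Without these livers the 5 genes Srebf1, Mlxipl, Pklr, Acaca and Fasn had an unadjusted limma p under 0.05, from 0.00465 for Mlxipl to 0.0221 for Pklr. Fabp4, Lipe and Cidec had reads in every liver, including those without Adipoq reads, and whether fat tissue gave these reads was not tested. The part of fat tissue in the differences was not tested. Of the other marker lists, the sums over 5 Kupffer cell genes ranged from 6063 to 8772 in saline and from 5125 to 13192 in LNA29 livers. Of these 5 genes, 4 had a lower mean in LNA29 livers and the median log2 fold change was -0.19. Marco alone was higher in LNA29 livers (log2 fold change 1.08, limma p = 0.00972, adjusted p = 0.391, exact permutation p = 0.0368). Sums over endothelial markers ranged from 3317 to 4156 in saline and from 3179 to 4123 in LNA29 livers, over stellate cell markers from 2843 to 3640 and from 2321 to 3973, and over bile duct markers from 603 to 891 and from 415 to 868. Blood cell markers ranged from 2158 to 6373 and from 2668 to 17751, the highest value being that of LNA29 replicate 52. Of 4 pancreas markers 3 had no reads in any liver, and their sum ranged from 60 to 219 and from 75 to 196. The part of these cells in the differences of the lipogenic genes was not tested.

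Promoter letters were read for the 10 genes because most of them differed in the same direction. The RefSeq windows from 250 bases before to 50 bases after each annotated start (GRCm38.p6, 15 windows for the 10 genes) were searched on both strands for CCAAT, the core of the NF-Y box, for CACGTG, the palindromic E-box core, and for TCACNCCAC, a form of the sterol response element. CCAAT was found in 10 of the 15 windows and in 9 of the 10 genes, all but Acaca, against 37.4% of 32851 windows and 41.1% of 27025 genes. These shares are over all annotated genes, whether or not they had reads in liver. A gene with more windows has more room for a match. CACGTG and TCACNCCAC were each found in 1 of the 10 genes, Mlxipl, against 8.09% and 1.44% of all genes. In Mlxipl they lay in windows of different annotated starts. The following stretches, on the gene's strand with the match in capitals (ATTGG being CCAAT on the other strand), show the box of the genes with the lowest ratios and the E-box of Mlxipl.
Fasn, chr11:120824593-120824621, first base of the match at -62: cggcctcggtgtCCAATtggtttcgatgt
Srebf1, chr11:60210485-60210513, at -30: gcgcggctgctgATTGGccatgtgcgctc
Pklr, chr3:89136494-89136522, at -117: tacaaggcttccATTGGcaagagagatgc
Mlxipl, chr5:135089705-135089733, at -173: cggcagaaggtgATTGGcaggctcctgag
Mlxipl, chr5:135089780-135089809, at -98: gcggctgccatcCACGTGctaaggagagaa
Acacb, whose values were not lower, also held the box, at -87, and Acaca, whose values were lower, did not. In Fasn the match at -62 overlaps a match on the other strand at -59. A match of letters is a description of the sequence and not a site, and the reference build is not the one the labels name for the reads, which was mm9.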

How the data were processed

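Polyadenylated liver RNA from 6 saline and 6 LNA29 mice was sequenced as single reads. The authors mapped reads with MapSplice2 and quantified genes with RSEM on mm9, as the study's methods and processing notes say, with versions not given in the sources used here. The deposited table holds, for 21705 genes, a signal value per liver, which the values show to be RSEM reads scaled to an upper quartile of 1000 (998 in saline replicate 49) and set to 1 for genes without reads. Depth was 7696084 to 19062441 reads per liver, inferred from the worth of 1 read. The authors also deposited group means, a signed fold change, which is a score with no fixed range, and p-values. None of these columns was used, nor were 3 unnamed columns that belong to no sample.

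The test across genes was limma 3.58.1 in R 4.3.3, fitted with an intensity-dependent prior (trend) to log2(value + 1). It covered the 12486 genes whose mean was 10 or more, with p-values adjusted over all of them by the Benjamini-Hochberg method and a threshold of 0.05. For genes without reads in some livers, fold changes on this scale depend on the value of 1 entered there. They can exceed the ratio of the group means. Single genes were also compared by two-sided exact permutation over the 924 divisions of the 12 livers, and correlations by 100000 permutations (Python 3.11.15, numpy 2.4.6, scipy 1.17.1, pandas 2.3.3). The members, pathway lists and marker lists were chosen with earlier results of these data known. All 10 members were named, with every gene of a pathway list at an unadjusted p under 0.05 (or the one with the smallest p) and the 8 genes most like the members. Col1a1, Col3a1, Sparc, Insig1, Mlx, Pck1 and Cpt1a were chosen after their values were seen, as were the genes named from the marker lists, the within-liver ratios and the alternative without livers with Adipoq reads. Transcript lengths and 3′ UTRs came from GENCODE release M21 (GRCm38), microRNAs and promoters from RefSeq (GRCm38.p6). The limma fit was tested on simulated data, and the other steps were not. Alternatives were other pseudocounts, filters and scaling, array weights, a length covariate and leaving out each liver.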

Additional observations from a re-analysis of the deposited data

Results flagged for a closer look

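In 42 groups of 6 livers, 4 values stood far from the rest of their group by Dixon's criterion for the gap over the range, where chance gives about 2.1. Thrsp in LNA29 replicate 48 was 7.83 on the log2(value + 1) scale, with the other 5 LNA29 livers between 10.24 and 11.03. Mlxipl in LNA29 replicate 46 was 10.76 on the same scale, with the others between 11.27 and 11.53. Albumin took 35.7% of the reads in saline replicate 49 and between 43.6% and 46.9% in the other saline livers. The summed endothelial markers were 3317 in saline replicate 45 and between 3860 and 4156 in the other saline livers.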

How the results depend on the processing

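The number of members with an adjusted limma p under 0.05 was 0 in every setting run, the smallest adjusted p being 0.0757 with each liver's transcript length trend as covariate and 0.0930 with array weights. Members with an unadjusted limma p under 0.05 numbered 5 to 7, and 8 were lower in every setting. Without each liver in turn the median log2 fold change of the members lay between -0.74 and -0.53. Over all genes, 20 had an adjusted p under 0.05, against 10 with a common median, 58 with array weights, 124 with the length covariate, 6 without the livers with Adipoq reads, and 1 to 29 without each liver in turn. The cause was not tested. No fold change of a member changed sign. Of the correlations, none of which passed, 4 did: Srebf1 with Me1 became -0.16 and Srebf1 with Pklr -0.047 with a common median, and Srebf1 with Thrsp became 0.36 and Mlxipl with Fasn -0.0083 without the 2 farthest livers. The gene with the largest fold difference, Srebf1 with all livers, was Thrsp without LNA29 replicate 52 or without the livers with Adipoq reads, and Pklr without LNA29 replicate 54. At unadjusted p, Acly passed with the length covariate (p = 0.0458) and without saline replicate 53, Thrsp without saline replicate 53 or LNA29 replicate 52, and Acacb without LNA29 replicate 48 (its difference falling to 0.13 without saline replicate 43), while the exact test of Mlxipl no longer passed without saline replicate 49 or LNA29 replicate 46. No paired analysis was possible because the groups share no replicate numbers. The planned count tests were not run, because only 92.2% to 93.8% of a liver's values were multiples of the worth of 1 read (within 0.02). The depth, with 12 to 653 reads behind each value of the 9 tested genes, leaves Pnpla3, at 4 reads or fewer, without a usable comparison.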

Other observations

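Over the 12 livers, the deviations of the 9 tested members from their group means were standardised and averaged. Outside the members, 8981 genes with a mean of at least 100 were ranked by how closely their own deviations ran with that average. The closest were Map2k1 (r = 0.94), Srebf2 (0.91), Galnt2 (0.90), Cyp2c37 (0.89), Fgf1 (0.89), Zfp710 (0.89), Lrat (0.87) and Pygl (0.87). These r values describe 12 livers that share library scaling, and the genes were picked as the highest of many. Lrat had at most 24 reads in a liver. Its lowest value, 18.9 in an LNA29 liver, rests on 1 read. Srebf2, which encodes the SREBP of cholesterol synthesis, had means of 2045 in saline and 1503 in LNA29 livers (log2 fold change -0.42, limma p = 0.0984, adjusted p = 0.726, exact permutation p = 0.175). Fgf1, a growth factor, had a log2 fold change of -0.63 (limma p = 0.00251, adjusted p = 0.237, exact permutation p = 0.00433) and Zfp710, a zinc finger gene, one of -0.73 (limma p = 0.000560, adjusted p = 0.138, exact permutation p = 0.00216). Map2k1, a kinase of the MAPK cascade, differed by -0.12 (limma p = 0.715, exact permutation p = 0.749).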
